A study of Mus musculus with 9 samples.

Results

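DNA methylation was examined at 10 genes that encode transcription factors of the B lineage: Ebf1, Pax5, Ikzf1, Ikzf3, Tcf3, Foxo1, Bach2, Lef1, Irf4 and Spi1. They were taken as a named list, with the CpGs that lie from 2 kb outside one gene end to 2 kb outside the other and that had at least 1 read in each of 9 libraries. These 10 genes, of 30068 with such a CpG, held 1348 of the 1096949 CpGs read in all libraries. The cells were Abl.1, immortalised B cells of a single line. They carry a 129S1/SvImJ x CAST/EiJ F1 genome and are female, and every group shares this origin. The libraries came from reduced representation bisulfite sequencing (RRBS), which sequences CpG-rich restriction fragments after bisulfite conversion. On day 2, live cells were taken from medium with 1% DMSO (2 libraries) or with the drug 5-aza-2'-deoxycytidine, called 5-aza-dC from here on, at 0.2 µM (2 libraries), 2 µM (3 libraries) or 10 µM (2 libraries). The drug was dissolved in DMSO, and the labels give no solvent concentration for the treated cultures. The labels number library preparations and do not say whether these came from separate cultures, so the spread and all p-values here may be technical only.

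B cell identity is built by transcription factors that act in sequence. Tcf3 (the E2A proteins), Foxo1 and Ebf1 open the early B cell programme, and Pax5 then fixes commitment by activating B cell genes and silencing those of other lineages. Ikzf1 (Ikaros) and Ikzf3 (Aiolos) are related zinc finger factors of lymphoid cells, Lef1 is a high-mobility-group factor expressed in early B cells, and Spi1 (PU.1) is an ETS factor needed for lymphoid and myeloid precursors. Bach2 holds back plasma cell differentiation, and Irf4 acts at light chain rearrangement and again in plasma cells. Promoters of expressed genes usually lie in unmethylated CpG islands while CpGs in gene bodies are mostly methylated, and 5-aza-dC, a cytidine analogue, enters replicating DNA and traps the DNA methyltransferases there.

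RRBS fragments are cut at CCGG, so coverage is uneven between promoters, and the 250 bases upstream of the start of Irf4 and of Pax5 are shown because the results at these genes differ and rest on different positions. CpGs read in all 9 libraries are in capitals. The sequences are those of RefSeq for GRCm38.p6, the build that mm10 names, written 5′ to 3′ on the strand of the gene. The Irf4 sequence is from chr13:30748983-30749232 on the plus strand and the Pax5 sequence from chr4:44710695-44710944 on the minus strand.
Irf4: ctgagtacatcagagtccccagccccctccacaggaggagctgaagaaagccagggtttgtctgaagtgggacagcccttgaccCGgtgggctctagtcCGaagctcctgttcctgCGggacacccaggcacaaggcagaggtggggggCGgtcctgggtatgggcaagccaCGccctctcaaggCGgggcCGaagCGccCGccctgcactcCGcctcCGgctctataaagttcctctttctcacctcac
Pax5: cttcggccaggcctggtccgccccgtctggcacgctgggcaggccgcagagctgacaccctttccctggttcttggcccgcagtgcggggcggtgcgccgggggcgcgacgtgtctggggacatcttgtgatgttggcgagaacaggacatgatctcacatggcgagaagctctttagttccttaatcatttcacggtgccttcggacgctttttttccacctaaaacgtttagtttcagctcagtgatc
The Irf4 window of 300 bases, from 250 upstream to 50 downstream of the start, held 11 CG and 2 CCGG, and all 11 CpGs were read. The Pax5 window held 23 CG and 1 CCGG, and none of its CpGs was read in all libraries. Of 32851 such RefSeq windows, 52.8% held CCGG (this palindrome reads the same on both strands), with a median of 7 CG. The Pax5 values below therefore begin 1330 bp upstream of the start and do not include this window.

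Each gene was divided into its ends (2 kb either side of the start and of the far end), its low-methylated stretches (runs of 5 CpGs inside the gene that averaged under 15% over the 4 groups) and the rest of the body. The methylation level of a segment was the unweighted mean over its CpGs in a library. Of 32 member segments with a CpG, 27 had at least 5 CpGs and were tested, and they held 1336 CpGs. Groups were compared with a quasi-binomial model over all 36945 segments of all genes, with the dispersion moderated by limma and p-values adjusted by the Benjamini-Hochberg method, and a segment was called at an adjusted p under 0.05. The libraries covered 1531189 to 2053468 CpGs with 8590777 to 16495423 reads at them and a median of 3 to 5 reads per CpG. The reads behind a segment are given beside its values, and neighbouring CpGs often share reads. Ends of B cell marker genes with at least 5 CpGs were mostly unmethylated in DMSO, with 5 of 6 under 20%. The counts were 1 of 3 for T cell, 1 of 3 for myeloid and 1 of 2 for erythroid markers. They are small and pool start ends, far ends and ends without a known strand. Over all genes, 67.4%, 27.0% and 47.1% of such ends were under 20% in DMSO. The Cd4 lower end (19.7%) and the start ends of Cebpa (16.8%) and Epor (20.6%) were close to that limit. Methylation does not measure expression, which was not measured in these libraries.

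The start ends of 7 of 8 members with a known strand were under 20% methylated in DMSO, and 6 of them were under 3%. Over all genes, 67.4% of 12864 start ends were under 20% in DMSO. Tcf3, a basic helix-loop-helix factor, had 94 CpGs at its start end (chromosome 10, 80433125 to 80435938), at 2.36 and 2.45% in the DMSO libraries, 1.12 and 0.449% at 0.2 µM, 2.19, 2.28 and 1.25% at 2 µM, with 2.28 and 1.75% at 10 µM. The 0.2 µM libraries were below every other library, but the fall of 1.62 points was not called (adjusted p = 0.306). Most of that level came from 4 CpGs between 1962 and 1475 bp upstream, which averaged 51.1% in DMSO, while the other 90 CpGs, from 222 bp upstream to 851 bp inside the gene, averaged 0.24%. Those 4 CpGs had only 14 to 47 reads per library. Foxo1, a forkhead factor, had 127 CpGs at its start end (chromosome 3, 52267585 to 52270333) and no library above 1.02%, with 1011 to 2656 reads per library.

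Ebf1, whose product opens chromatin at B cell genes, had 33 CpGs at its start end (chromosome 11, 44617496 to 44619600) with levels from 0.16 to 0.88% over the 9 libraries. The treated libraries lay within the span of the DMSO libraries or close to it, and no comparison was called. Ikzf1 had 78 CpGs at its start end (chromosome 11, 11683688 to 11686409), at 1.97 and 1.40% in DMSO, 1.01 and 0.652% at 0.2 µM, 1.21, 0.459 and 0.855% at 2 µM, with 1.02 and 1.10% at 10 µM. All 7 treated libraries were below both DMSO libraries, and the difference was not called (adjusted p = 0.444 at 0.2 µM). Without the single upstream CpG of this end, the other 77 averaged 0.41% in DMSO and 0.41% at 0.2 µM. Lef1 had 88 CpGs at its start end (chromosome 3, 131110309 to 131112294), between 0.205 and 1.16% in every library.

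Bach2, the repressor of the plasma cell programme, had 165 CpGs at its start end (chromosome 4, 32237382 to 32240141), at 2.75% in both DMSO libraries, 1.67 and 1.07% at 0.2 µM, 1.10, 1.74 and 2.27% at 2 µM, with 2.77 and 2.48% at 10 µM. The 0.2 and 2 µM libraries were all below DMSO and the 10 µM libraries were level with it, and no comparison was called. As at Tcf3, few CpGs carried the level: 4 CpGs from 1031 to 954 bp upstream averaged 91.3 ± 5.30% (SD, n = 2) in DMSO and 38.9 ± 13.6% (SD, n = 2) at 0.2 µM, and the other 161 averaged 0.55% and 0.44%. Those 4 CpGs had only 24 to 74 reads per library. With limma on the levels in place of the quasi-binomial model, the falls of Tcf3 and Bach2 at 0.2 µM were called. Ikzf3 is not in the promoter table, so its strand was not taken from it. The upper end of Ikzf3, by coordinate (chromosome 11, 98545437 to 98546076), held 61 CpGs at 3.56 and 6.14% in DMSO and between 3.48 and 5.87% in the treated libraries, with no call.

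**Figure D1:**
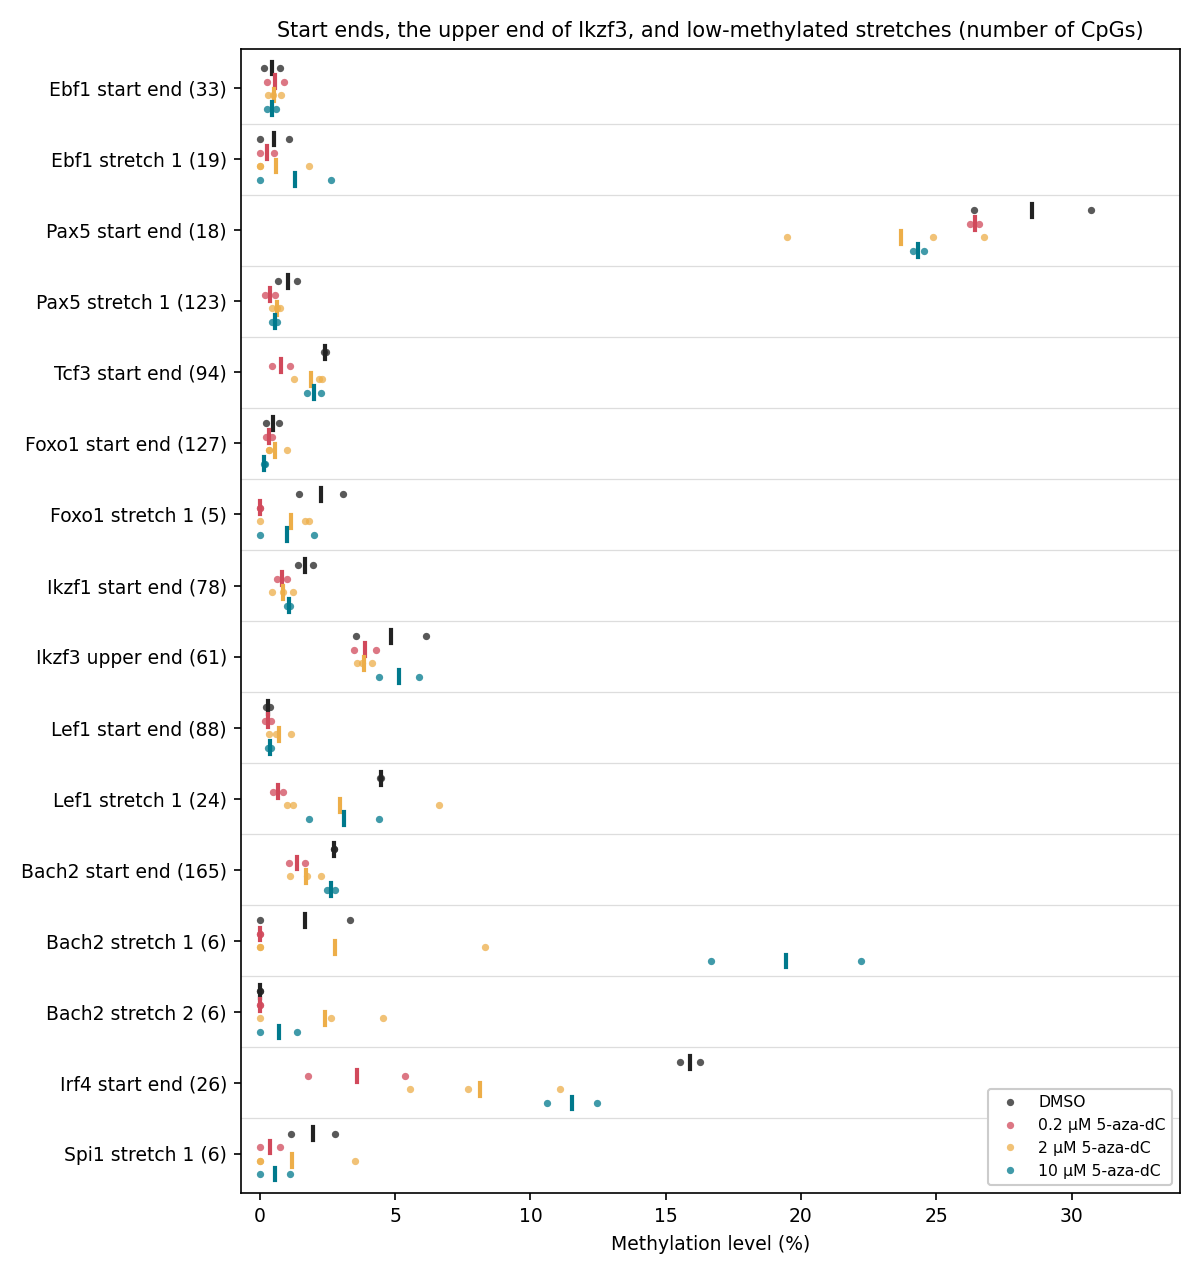
Methylation level in percent (x axis) of the members' start ends, the upper end of Ikzf3 and the low-methylated stretches (y axis, number of CpGs in brackets), with a point per library and a bar at the group mean, coloured by group. Most segments lie under 5% in every library, the Pax5 start end lies between 19.5 and 30.7% in all groups, and the Irf4 start end is highest in DMSO and lowest at 0.2 µM.

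Irf4 was the only member whose start end was called. Its 26 CpGs (chromosome 13, 30748408 to 30750875, 239 to 521 reads per library) stood at 15.5 and 16.3% in DMSO, 5.36 and 1.79% at 0.2 µM, 5.56, 11.1 and 7.70% at 2 µM, with 10.6 and 12.5% at 10 µM. Every treated library was below both DMSO libraries, and the 0.2 µM libraries were the lowest. The fall at 0.2 µM was 12.3 points (adjusted p = 0.00262), so that 1 of 8 member start ends was called lower at 0.2 µM, where 35.4% of all start ends were. Most of the 8 had little room to fall, at a median of 2.04% in DMSO. At 2 µM the difference of the Irf4 start end from DMSO was -7.77 points (adjusted p = 0.0661) and at 10 µM -4.36 points (adjusted p = 0.625). The call at 0.2 µM was lost when reads were summed over the segment and when CpGs with under 5 or under 10 reads were left out.

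The fall at Irf4 lay outside the promoter window printed above. The 11 CpGs of that window, from 166 to 32 bp upstream, averaged 1.00 ± 0.26% (SD, n = 2) in DMSO and 0.57 ± 0.80% (SD, n = 2) with 0.2 µM. They averaged 1.29 ± 1.33% (SD, n = 3) with 2 µM and 1.01 ± 1.43% (SD, n = 2) with 10 µM, with 95 to 236 reads per library. The 10 CpGs from 1368 to 1642 bp inside the gene were as low, at 0.44% in DMSO and 0.45% at 0.2 µM. The 5 CpGs from 825 to 263 bp upstream stood at 77.1 and 82.0% in DMSO, 26.0 and 6.82% at 0.2 µM, 21.7, 53.9 and 39.3% at 2 µM, with 51.9 and 56.1% at 10 µM. In these 5 CpGs no treated library reached the DMSO values. They rest on 14 to 57 reads per library. This division of the Irf4 end was made after its values were seen and was not tested apart from the whole end. The CpG 263 bp upstream and the CpG 748 bp upstream were intermediate in DMSO, with 6 of 12 and 5 of 11 reads methylated, whereas those at 825, 764 and 705 bp upstream had 2 of 2, 6 of 6 and 6 of 6.

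**Figure D2:**
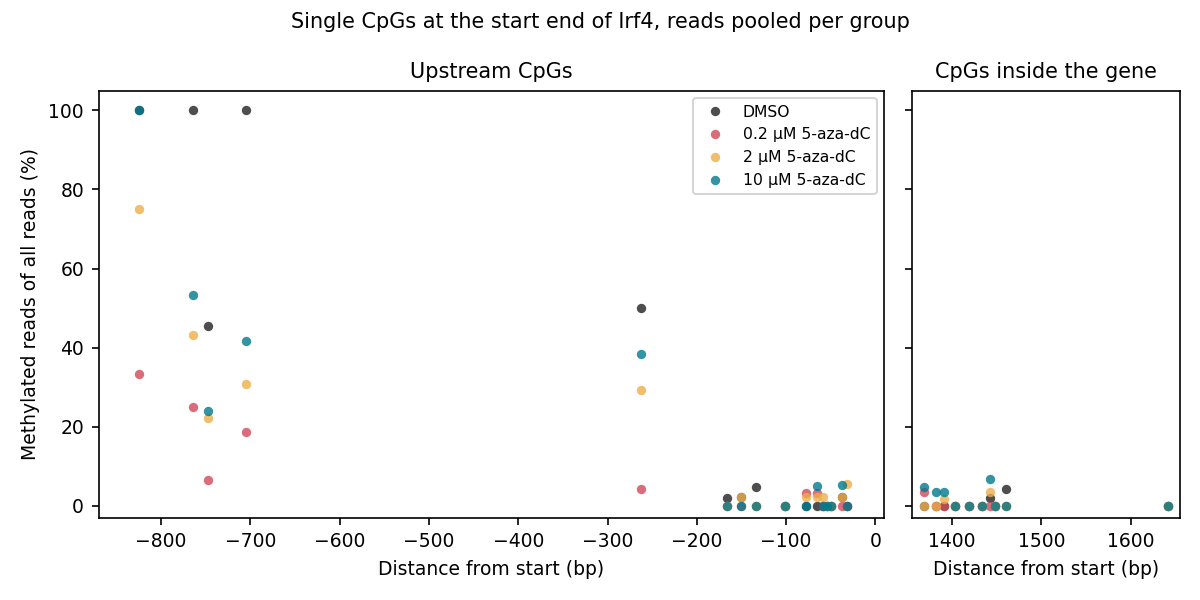
Share of methylated reads in percent (y axis) at each CpG of the Irf4 start end against its distance from the gene start in bp (x axis, upstream CpGs left, CpGs inside the gene right), with reads pooled over the libraries of a group. At each of the 5 outer CpGs 0.2 µM is lowest and DMSO is highest, level with 10 µM at 825 bp upstream (2 of 2 reads methylated in both). The 21 CpGs nearer to or past the start stay under 10% in all groups.

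Pax5 was the only member with a start end above 20% in DMSO, and this end was not called in any of the 5 comparisons. Its 18 CpGs lie from 1564 to 1330 bp upstream of the start (chromosome 4, 44712024 to 44712258), with 161 to 379 reads per library. They stood at 26.4 and 30.7% in DMSO, 26.6 and 26.2% at 0.2 µM, 19.5, 24.9 and 26.8% at 2 µM, with 24.1 and 24.5% at 10 µM. The groups overlapped or nearly touched, and the 0.2 µM libraries lay inside the DMSO range or just under it. The difference from DMSO was -2.14 points at 0.2 µM (adjusted p = 0.815), -4.85 at 2 µM (adjusted p = 0.494) and -4.22 at 10 µM (adjusted p = 0.775).

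The Pax5 start end kept 92.5, 83.0 and 85.2% of its DMSO level at 0.2, 2 and 10 µM. Over all 4197 start ends at 20% or above in DMSO, the median kept was 49.0%, 62.1% and 82.4%. As much as Pax5 or more was kept by 1.19% of these start ends at 0.2 µM. The share was 7.86% at 2 µM and 41.7% at 10 µM. Pax5 thus stood high in the distribution at 0.2 µM and near its middle at 10 µM. The single CpGs of this end were mostly intermediate themselves: in DMSO they ran from 7.69 to 52.6% with a median of 23.7%, and at 0.2 µM from 0 to 48.5% with a median of 24.8%, on 11 to 35 pooled reads each.

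The rest of the Pax5 body is set beside the start end as a description, since this gene was picked after its values were seen. The difference between the rest of the Pax5 body and the start end was 52.9 ± 3.56 points (SD, n = 2) in DMSO and 3.07 ± 5.77 points (SD, n = 2) with 0.2 µM. It was 21.0 ± 8.71 points (SD, n = 3) with 2 µM and 44.3 ± 2.91 points (SD, n = 2) with 10 µM. At 0.2 µM the body stood at about the level of the start end. An exact permutation test of the difference between them, over 7560 assignments of the 9 libraries to groups, gave p = 0.00238. Since Pax5 was picked after its values were seen, this p-value is not used as support. Whether the body and the start end differ in the share of DMSO they kept was not tested.

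Low-methylated stretches were chosen by their level over all 4 groups, so their low level in the treated groups follows from that rule and is given as a description. Of 3583 such stretches in all genes, 7 lay in members. The longest, in Pax5, held 123 CpGs from 6047 to 7258 bp inside the gene (chromosome 4, 44703436 to 44704647), a gene known for alternative promoters, and stood at 0.687 and 1.37% in DMSO, 0.542 and 0.201% at 0.2 µM, 0.642, 0.759 and 0.459% at 2 µM, with 0.637 and 0.460% at 10 µM on 907 to 2993 reads. Every library was under 2% and none of the comparisons was called. In Ebf1, 19 CpGs from 2145 to 2485 bp inside the gene ran from 0 to 2.63%. In Foxo1, 5 CpGs next to the start end ran from 0 to 3.08%, on 16 to 67 reads. The Spi1 stretch of 6 CpGs (chromosome 2, 91096655 to 91097195) ran from 0 to 3.51%, and is the only low-methylated segment of this ETS factor gene that could be tested, since neither of its ends had 5 CpGs.

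The Lef1 stretch of 24 CpGs (chromosome 3, 131112315 to 131113206) was the only called one: it stood at 4.46% in both DMSO libraries, 0.477 and 0.839% at 0.2 µM, 1.23, 1.02 and 6.60% at 2 µM, with 4.39 and 1.81% at 10 µM. The 0.2 µM libraries were below all others, while the 2 µM libraries spanned the DMSO level. The fall of 3.80 points at 0.2 µM had an adjusted p of 0.0486, so 1 of 7 member stretches was called lower, against 9.32% of all stretches. It was kept in only 6 of 21 alternatives, and with at least 5 reads per CpG the difference became 0.09 points. The 8 CpGs of the stretch that lie past 2.5 kb carried the level, at 12.5 ± 0.39% (SD, n = 2) in DMSO and 0.87 ± 0.19% (SD, n = 2) at 0.2 µM, against 0.46% and 0.55% in the 16 before it, a division made after the values were seen.

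Bach2 held 2 stretches of 6 CpGs each, both thinly read. Bach2 stretch 1 (chromosome 4, 32363583 to 32363775) stood at 3.33 and 0% in DMSO, 0 and 0% at 0.2 µM, 0, 8.33 and 0% at 2 µM, with 22.2 and 16.7% at 10 µM. Both 10 µM libraries were above every other library, but the lowest library had 6 reads over the 6 CpGs and the rise of 17.8 points was not called (adjusted p = 0.303). With limma on the levels, which does not weigh reads, it was called higher at 10 µM. Stretch 2 (chromosome 4, 32580189 to 32580336) had no methylated read in DMSO or at 0.2 µM and no library above 4.55%, on 29 to 68 reads per library.

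In the rests of the gene bodies all 9 members with a tested segment lost methylation at 0.2 µM, the lowest dose. The background at this dose was high: 95.1% of all 10041 rests of bodies were called lower. Ebf1 had the most negative member change after Irf4 and Lef1, from 84.9 and 85.1% in DMSO to 26.5 and 22.9% at 0.2 µM over 101 CpGs (357 to 980 reads), with 41.9, 35.7 and 40.8% at 2 µM and 66.0 and 69.2% at 10 µM. No 2 groups overlapped, and the order from low to high was 0.2 µM, 2 µM, 10 µM and DMSO. The falls from DMSO were 60.3 points (adjusted p = 3.22e-07), 45.5 points (adjusted p = 6.24e-06) and 17.4 points (adjusted p = 0.0135).

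In Pax5 the rest of the body, 137 CpGs with 422 to 1122 reads, stood at 81.8 and 81.1% in DMSO, 33.7 and 25.2% at 0.2 µM, 50.5, 39.7 and 44.0% at 2 µM, with 70.5 and 66.8% at 10 µM. The groups again did not overlap and had the same order. The fall was 52.0 points at 0.2 µM (adjusted p = 4.73e-07), 36.8 at 2 µM (adjusted p = 1.02e-05) and 12.8 at 10 µM (adjusted p = 0.0393), and the last of these was kept in 9 of 20 alternatives.

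At Tcf3 both the body and the far end were tested. The rest of the body, 21 CpGs with 60 to 147 reads, was the least methylated of the members in DMSO, at 56.3 and 62.9%, and stood at 19.2 and 18.5% at 0.2 µM, 50.5, 49.4 and 42.2% at 2 µM, with 57.2 and 66.8% at 10 µM. At 10 µM the libraries overlapped those in DMSO (difference 2.40 points, adjusted p = 0.967), which makes Tcf3 the exception to the order of the other 8 members. The far end, 20 CpGs (chromosome 10, 80410084 to 80410670, 104 to 273 reads), stood at 98.0 and 97.5% in DMSO, 30.0 and 37.3% at 0.2 µM, 42.7, 46.3 and 31.4% at 2 µM, with 61.6 and 71.9% at 10 µM. Here no treated library was near DMSO, with falls of 64.1 (adjusted p = 3.68e-06), 57.6 (adjusted p = 1.43e-05) and 31.0 points (adjusted p = 0.00691), although the 0.2 and 2 µM libraries overlapped. Whether the body and the far end of Tcf3 differ in what they kept was not tested.

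Foxo1 had 8 CpGs in the rest of its body (37 to 109 reads), at 76.3 and 81.9% in DMSO, 21.6 and 34.2% at 0.2 µM, 47.2, 31.1 and 58.6% at 2 µM, with 79.3 and 62.5% at 10 µM. The 2 µM libraries overlapped those at 0.2 µM, and the 10 µM libraries overlapped DMSO. It was called lower at 0.2 µM (fall of 51.3 points, adjusted p = 0.00304) and at 2 µM (33.5 points, adjusted p = 0.0283) and not at 10 µM (-8.27 points, adjusted p = 0.825). The call at 0.2 µM was lost without DMSO replicate 2 (adjusted p = 0.0544), and that at 2 µM without DMSO replicate 1, without DMSO replicate 2 (adjusted p = 0.253) and without 2 µM replicate 2. Ikzf3 had 27 CpGs in the rest of its body (88 to 300 reads), which stood at 70.0 and 78.9% in DMSO, 29.7 and 32.8% at 0.2 µM, 54.9, 44.9 and 53.6% at 2 µM, with 72.0 and 63.1% at 10 µM. For this Ikaros family gene the falls at 0.2 µM (43.2 points, adjusted p = 0.000263) and 2 µM (23.3 points, adjusted p = 0.0138) were called, and at 10 µM the libraries overlapped DMSO (adjusted p = 0.789). The call at 2 µM was lost without DMSO replicate 2 (adjusted p = 0.167). Ikzf1 itself had only 4 CpGs in the rest of its body and was not tested there: they averaged 75.6% in DMSO and 19.9, 35.2 and 47.9% at the 3 doses in rising order.

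Lef1, Bach2 and Irf4 were, with Ebf1 and Pax5, the members whose bodies were called lower than DMSO at every dose. In Lef1 the rest, 61 CpGs (178 to 517 reads), stood at 94.4 and 91.8% in DMSO, 35.6 and 29.6% at 0.2 µM, 48.0, 49.8 and 52.3% at 2 µM, with 69.0 and 76.3% at 10 µM, and its fall at 10 µM was 20.5 points (adjusted p = 0.0122). In Bach2 it was 56 CpGs (234 to 546 reads), which stood at 80.1 and 81.5% in DMSO, 32.1 and 29.6% at 0.2 µM, 47.6, 46.2 and 47.0% at 2 µM, with 58.1 and 58.4% at 10 µM, a fall of 22.5 points at the highest dose (adjusted p = 0.019). In both genes the 4 groups were separate and in the same order. The Bach2 call at 10 µM was kept in 15 of 20 alternatives. With at least 5 reads per CpG it was lost (adjusted p = 0.996), as was the Bach2 call at 2 µM (adjusted p = 0.161). The rest of the Irf4 body, 11 CpGs (53 to 209 reads), was the most methylated in DMSO, at 95.9 and 98.9%, and stood at 25.2 and 28.4% at 0.2 µM, 49.2, 47.4 and 46.9% at 2 µM, with 66.5 and 67.7% at 10 µM. Its falls of 70.6 (adjusted p = 5.61e-06), 49.5 (adjusted p = 6.85e-05) and 30.3 points (adjusted p = 0.012) were the largest of the 9 members' rests at each dose.

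The body of Spi1 and the far end of Lef1 were thinly read. The rest of the Spi1 body had 10 CpGs with 31 to 80 reads, at 67.5 and 80.0% in DMSO, 36.1 and 24.1% at 0.2 µM, 59.3, 17.8 and 25.1% at 2 µM, with 75.5 and 21.2% at 10 µM. Replicates at 2 and 10 µM were far apart. The fall of 43.7 points at 0.2 µM was called (adjusted p = 0.0212) and lost when either DMSO library or the library 0.2 µM replicate 2 was left out, and with limma on the levels. The 5 CpGs of the Lef1 far end (9 to 43 reads) stood at 78.3 and 90.0% in DMSO, 9.44 and 26.1% at 0.2 µM, 71.5, 38.0 and 33.6% at 2 µM, with 81.3 and 66.7% at 10 µM. It was called lower at 0.2 µM (fall of 66.4 points, adjusted p = 0.00121) and 2 µM (36.5 points, adjusted p = 0.0409), and the latter call was lost without either DMSO library, without 2 µM replicate 2 and without 2 µM replicate 3.

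**Figure D3:**
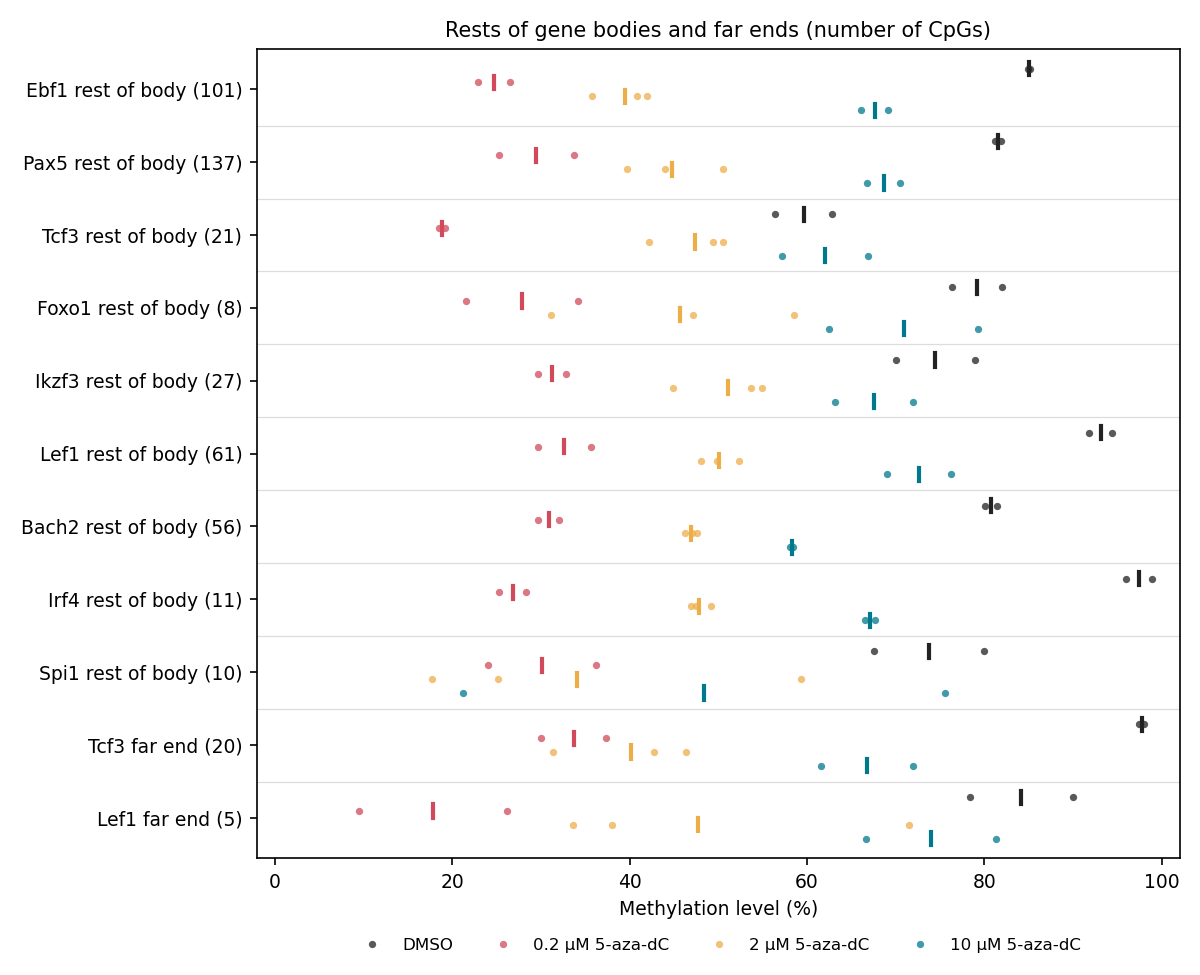
Methylation level in percent (x axis) of the rests of the members' bodies and of the 2 far ends (y axis, number of CpGs in brackets), with a point per library and a bar at the group mean, coloured by group. DMSO is highest and 0.2 µM lowest in 8 of the 9 rests, with 2 and 10 µM between them, and the replicates of Spi1 are far apart at 2 and 10 µM.

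Over the 27 member segments, 13 were called lower at 0.2 µM (55.9% of all segments), 9 at 2 µM (41.8%) and 6 at 10 µM (8.63%). By segment class, rests of bodies gave 9, 7 and 5 of 9 at the 3 doses (all genes 95.1%, 80.3% and 17.7%), far ends 2, 2 and 1 of 2 (all genes 72.2%, 52.9% and 9.25%), and start ends 1, 0 and 0 of 8 (all genes 35.4%, 22.5% and 4.8%). Most of these 8 start ends had little room to fall, at a median of 2.04% in DMSO. Of all 12864 start ends 4197 were at 20% or above in DMSO, against 1 of the 8. The member shares were near the background in the rests of bodies at 0.2 and 2 µM. At 10 µM more of them were called than in the background, while the median change of the member rests, -17.4 points, was close to that of all rests, -15.6 points. At an unadjusted p under 0.05, 1 member start end was lower at 2 µM and 0 at 10 µM, and limma on the levels called 1 and 0. The stretches gave 1, 0 and 0 of 7 (all genes 9.32%, 1.03% and 0.0558%), with 0 at an unadjusted p under 0.05 and 0 by limma at the 2 higher doses. No member segment was called higher than DMSO at any dose, where 0.0623%, 0.0947% and 0.0812% of all segments were. At an unadjusted p under 0.05 the count was also 0, and limma on the levels called 1, the Bach2 stretch described above. The 6 calls at 10 µM fell to 0 without either DMSO library and to 2 without 10 µM replicate 1.

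Between the treated groups, some of the members' bodies were called higher at the higher dose. From 0.2 to 2 µM, 6 of 27 member segments were called higher (12.7% of all segments), all of them rests of bodies (6 of 9, against 27.8% of all rests): Ebf1 by 14.8 points (adjusted p = 0.0134), Pax5 by 15.2 (adjusted p = 0.0117), Tcf3 by 28.5 (adjusted p = 0.0254), Bach2 by 16.1 (adjusted p = 0.0322), Lef1 by 17.4 (adjusted p = 0.0235) and Irf4 by 21.0 (adjusted p = 0.042). From 2 to 10 µM, 4 of 27 were called higher (10.1% of all segments; 3 of 9 rests against 20.7%, 1 of 2 far ends against 12.3%): the rests of Ebf1 by 28.1 points (adjusted p = 0.00737), Pax5 by 23.9 (adjusted p = 0.00777) and Lef1 by 22.6 (adjusted p = 0.0151), and the Tcf3 far end by 26.6 (adjusted p = 0.0243). The rests of Foxo1, Ikzf3 and Spi1 passed in neither step (adjusted p = 0.309, 0.0562 and 0.828 in the first). None was called lower in either step (0.466% and 0.0352% of all segments), also at an unadjusted p under 0.05 and with limma on the levels. The first step had 0 calls without either 0.2 µM library, 2 without DMSO replicate 1 and 3 without DMSO replicate 2 or without any 2 µM library, and the second had 2 without either 10 µM library. With at least 5 reads per CpG, 0 were called in both steps. The median change of the member rests was 17.4 points in the first step and 19.2 points in the second. That of all rests was close, at 17.3 and 17.2 points. The 2 steps share the 2 µM libraries.

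The rests of the members' bodies kept a median of 35.2 ± 4.54%, 54.9 ± 5.57% and 79.5 ± 3.66% of their DMSO level at 0.2, 2 and 10 µM (SD over the 2, 3 and 2 libraries of the median over 9 rests). Over all 10013 rests at 20% or above in DMSO the medians were 34.4%, 57.8% and 80.3%, close to those of the members. The SD describes the spread between libraries, which both medians share. It is not the error of their difference, which was not tested. Among members the range was 27.5% (Irf4) to 42.0% (Ikzf3) at 0.2 µM. It was 46.2% (Spi1) to 79.5% (Tcf3) at 2 µM and 65.6% (Spi1) to 104% (Tcf3) at 10 µM. Group means were in the order 0.2 µM, 2 µM, 10 µM, DMSO in 8 of 9 member rests (88.9%) and in 83.9% of all rests. In 5 of 9 (55.6%), Ebf1, Pax5, Lef1, Bach2 and Irf4, no libraries of neighbouring groups overlapped, which held in 41.0% of all rests. The 3 doses share the DMSO libraries.

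**Figure D4:**
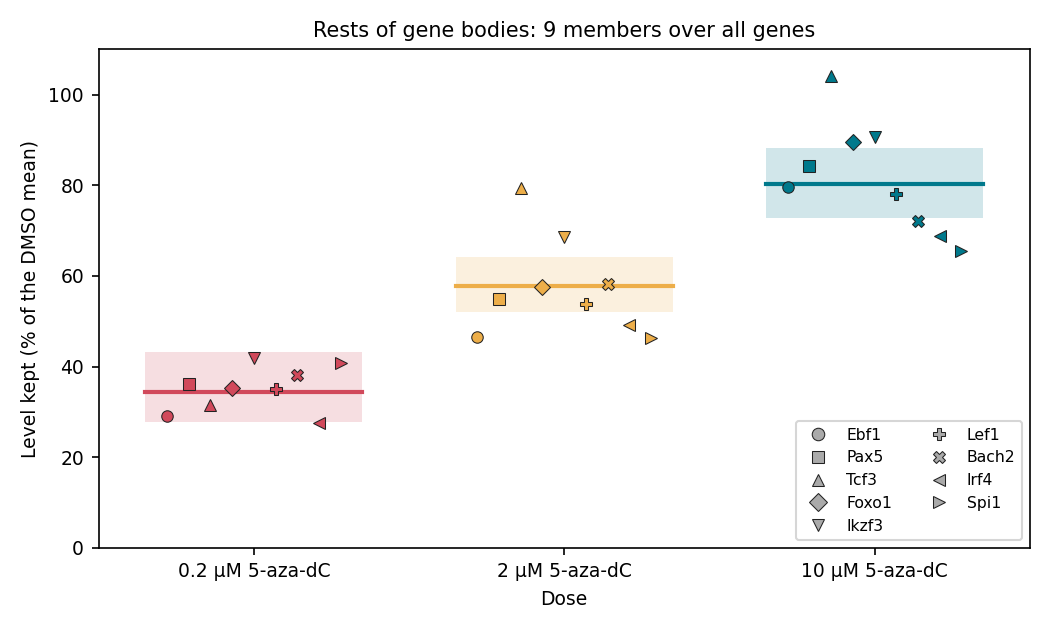
Level kept at each dose as a percentage of the DMSO mean (y axis) in the rests of the bodies of 9 members (symbols), by dose (x axis), over the median (line) and the middle 50% (shaded, lower to upper quartile) of all genes' rests at 20% or above in DMSO. The members sit around the all-gene median at each dose. At 2 and 10 µM Tcf3 and Ikzf3 are above the shaded range, and Irf4 and Spi1 are below it. Ebf1 is also below it at 2 µM. At 10 µM Foxo1 is just above it and Bach2 just below it, and at 0.2 µM Irf4 is just below it.

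Each gene was also read as groups of at least 5 CpGs with gaps of at most 500 bp, a unit added after the data were examined. The members held 42 such groups, 27 of them at 20% or above in DMSO. At 0.2 µM 22 of these 27 were called lower (83.6% of such groups in the genome), at 2 µM 15 (59.5%) and at 10 µM 3 (7.77%). Of the 15 groups under 20% in DMSO none was called lower at any dose (5.71%, 0.432% and 0% of such groups), with 0 at an unadjusted p under 0.05. The 3 groups called at 10 µM were the Tcf3 far end, 15 CpGs of Bach2 from 323921 to 324620 bp past the start (96.4% in DMSO, 62.1% at 10 µM, adjusted p = 0.0168) and 7 CpGs of Irf4 from 8204 to 8313 bp past the start (96.8% and 59.0%, adjusted p = 0.0159).

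In Pax5, past its low-methylated stretch, 12 CpGs from 31140 to 31344 bp inside the gene stood at 24.6 and 8.63% in DMSO, 35.8 and 7.26% at 0.2 µM, 7.14, 54.0 and 29.8% at 2 µM, with 51.6 and 11.1% at 10 µM, on 30 to 96 reads. The libraries of each group were far apart and no comparison was called. A denser group of 41 CpGs from 46004 to 46622 bp was at 94.9 and 96.7% in DMSO, 55.9 and 39.5% at 0.2 µM, 73.6, 30.1 and 35.8% at 2 µM, with 81.2 and 88.1% at 10 µM. It was called lower at 0.2 µM (adjusted p = 0.000596) and 2 µM (adjusted p = 0.00068), and the libraries of these doses overlapped. The 4 groups further inside, between 112463 and 150068 bp, averaged 92.8 to 100% in DMSO and 11.4 to 38.7% at 0.2 µM. In Ebf1, whose body spans 389997 bp, the 4 methylated groups stood at 94.8 to 96.7% in DMSO and 19.7 to 35.6% at 0.2 µM. At 10 µM these ran from 68.4% in the group nearest the start to 94.5% in 11 CpGs from 215299 to 215538 bp, where the 10 µM libraries (94.8 and 94.3%) lay inside the DMSO range of 93.2 to 98.2%. These 11 CpGs had 16 to 124 reads per library, and the group farthest from the start had 8 to 40.

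**Figure D5:**
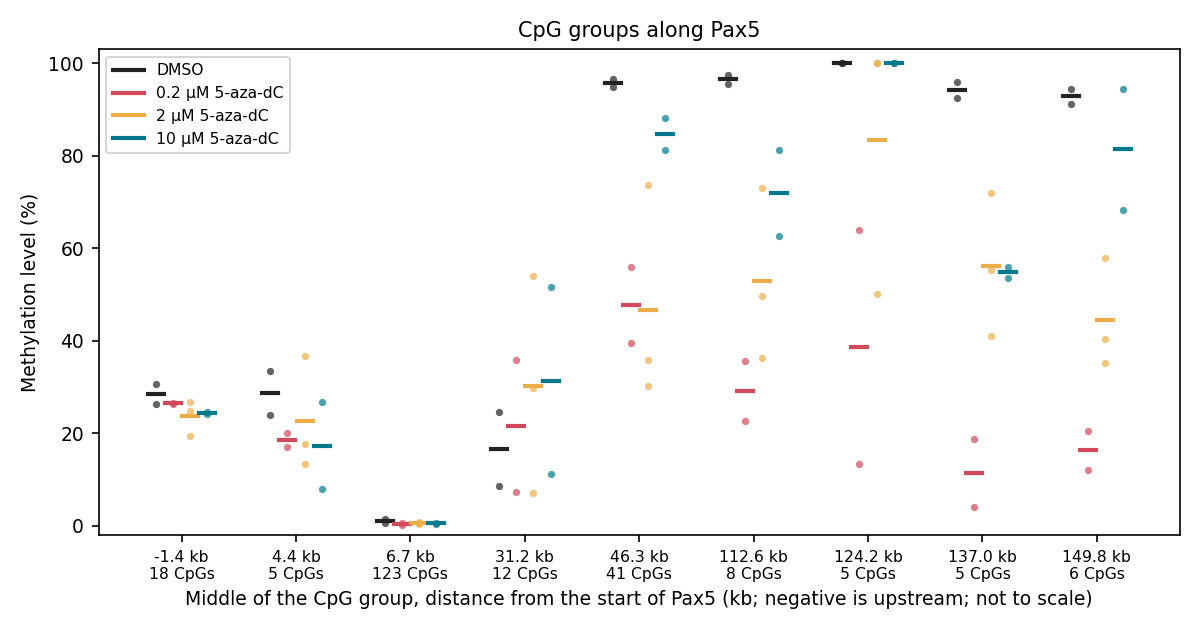
Methylation level in percent (y axis) of the 9 CpG groups of Pax5 in order of distance from the gene start in kb (x axis, evenly spaced and not to scale), with a point per library and a bar at the group mean. The group at -1.4 kb lies between 19.5 and 30.7% in all libraries, and the 5 groups from 46.3 kb on are above 90% in DMSO and lower at 0.2 µM.

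The 10 members were set beside 34 other regulators of B cell development, a list chosen with earlier results of these data known. Of these, 33 genes had a tested segment and gave 97 segments. At 0.2 µM 40 were called lower (55.9% of all segments), at 2 µM 31 (41.8%) and at 10 µM 12 (8.63%), and none was called higher (0 higher at an unadjusted p under 0.05 at each dose, and limma on the levels called 0, 0 and 1). All 25 of their rests of bodies were called lower at 0.2 µM, as were 7 of 25 start ends and 3 of 38 stretches (all genes 95.1%, 35.4% and 9.32%). These shares were near or below the background, apart from the count at 10 µM, which was above it. The largest falls at 0.2 µM were at the far end of Irf8, an interferon regulatory factor related to Irf4 (95.6 to 24.5%, -71.1 points, adjusted p = 3.11e-05), in the rest of the body of Zbtb17, which encodes the Myc partner Miz-1 (97.8 to 28.6%, -69.2 points, adjusted p = 4.12e-06), and at the start end of Runx3, a Runt domain factor (94.7 to 26.3%, -68.4 points, adjusted p = 0.00131). The Runx3 start end held 5 CpGs with 10 to 39 reads per library. Of the 25 start ends of these other regulators, 20 were under 20% in DMSO, where 67.4% of all start ends were. Between the doses, 11 of the 97 were called higher from 0.2 to 2 µM (12.7% of all segments) and 13 from 2 to 10 µM (10.1%). Of their 25 rests of bodies, 10 and 11 were called higher in these steps (all genes 27.8% and 20.7%).

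The 5 untested member segments held 12 CpGs. In 4 of them the level in DMSO was above 75%: the rest of Ikzf1 given above, the lower end of Ikzf3 (2 CpGs, 93.8% in DMSO and 38.1% at 0.2 µM), the upper end of Spi1 (2 CpGs, 96.4% and 47.5%) and the far end of Bach2 (1 CpG, 100% and 12.5%). The far end of Ebf1 (3 CpGs) had no methylated read in any group mean. Their lowest library had between 1 and 11 reads, which is too few to compare groups.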

How the data were processed

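RRBS was done on 9 libraries of Abl.1 cells. Per the labels' protocols, libraries were made from live cells with a commercial RRBS kit, and the build is mm10 per the submitters' processing notes. For the aligner and the methylation caller, a name is not given in the sources used here. Each deposited file of the authors has no header and holds 3 kinds of entry: a CpG position, the methylated over all reads as text, and a score. The deposited score is the methylated share in thousandths, rounded down, which held for all lines used, and it served as that check only, and the deposited read counts were taken from the text. Positions were read as 0-based and are printed 1-based; 181463 of 181463 read CpGs inside RefSeq promoter windows (GRCm38.p6) fell on a CG. Lines with another width (1 or 2 per library) or a repeated position (18 to 68) were left out. Gene ends and names came from the RefSeq gene table, and strand from the promoter table, which holds 8 of the 10 members.

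Python 3.11.15 built the segments. In R 4.3.3 with limma 3.58.1, each segment of all genes with at least 5 CpGs was fitted with a logistic (quasi-binomial) model of its level, 1 level per group, all 9 libraries. Weights were effective reads (squared number of CpGs over the summed reciprocal reads), scaled for read correlations of 0.032 to 0.00402 in 5 coverage classes, estimated from segments at 10 to 90%. The dispersion was moderated with a coverage trend (prior 9.32, residual 5 degrees of freedom) and held at 1 or more. F-test p-values were adjusted by the Benjamini-Hochberg method over the 36945 segments of a comparison. Tested on simulated data, it missed many of the changed segments, so a segment that was not called may still differ. PCR copies were not separated. The moderation's prior came from segments at mean levels of 2 to 98%.

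All 10 members are named. Of the other regulators, the rule named the 3 largest called falls and rises at 0.2 µM, and no rise was called. Members and lists were chosen with earlier results of these data known. The CpG groups and the division of segments were added after the data were examined. There were 21 alternatives.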

Additional observations from a re-analysis of the deposited data

How the results depend on the processing

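The counts moved with the reads a CpG needed, with single libraries and with the replicate block. With at least 5 reads in every library, 17 member segments were left to test, and 5, 4 and 3 were called lower at 0.2, 2 and 10 µM and 0 higher from 0.2 to 2 µM and 0 from 2 to 10 µM, while the counts over all genes were 5973, 4915, 1700, 129 and 288. With at least 10 reads, 10 member segments and no rest of a body were left, with 0 member calls in all 5 comparisons and 406, 290, 20, 0 and 5 calls over all genes. With at least 5 reads the median kept was 48.6% at 2 µM and 73.7% at 10 µM, and 2 directions turned: the Lef1 stretch at 0.2 µM (0.0907 points) and the rest of Lef1 from 0.2 to 2 µM (-3.63 points). Fewer CpGs and segments enter these alternatives by construction. With 10 CpGs per segment, 13374 segments over all genes were called lower at 0.2 µM. Summed reads gave 6186 calls over all genes at 10 µM and 5739 from 2 to 10 µM. Without the scaling of reads, the 2 dose steps gave 9419 and 6407 calls over all genes. Limma on the levels called 1 member segment higher at 10 µM and 7 from 2 to 10 µM. For these settings the cause was not tested.

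The replicate numbers did not pair the libraries: deviations of same-numbered libraries had correlations from -0.0074 to 0.0166 over 22372 segments. With the replicate block, 1331 segments over all genes were called lower at 10 µM, 0 member and 514 of all segments higher from 0.2 to 2 µM, and 0 member and 0 of all segments from 2 to 10 µM. Replicate 3 exists only at 2 µM, so its block level absorbs that library, and fewer residual degrees of freedom are left. The lost calls are therefore not evidence of a replicate effect.

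Leaving out each library in turn (a lone library is then assumed to vary like the other groups) gave 10 to 13 member calls at 0.2 µM (16529 to 21025 over all genes), 6 to 10 at 2 µM (9150 to 15815), 0 to 6 at 10 µM (0 to 3109), 0 to 7 from 0.2 to 2 µM (0 to 5793) and 2 to 4 from 2 to 10 µM (377 to 2437). Without a library no member segment was called in the opposite direction. The median kept ran from 31.8 to 38.3%, 52.5 to 58.0% and 79.4 to 86.5% at the 3 doses, with 86.5% without 10 µM replicate 2. Of 38 single member calls, 14 were kept in every alternative run on their segment. Depth is a limit, since the library medians were 3 to 5 reads at a CpG. The 2 models differed at the Tcf3 and Bach2 start ends at 0.2 µM, with changes of -1.62 and -1.38 points. Limma on the levels, which does not weigh reads, called them, and the quasi-binomial model did not. The cause of this disagreement was not tested. These ends had 277 to 1089 and 1096 to 3461 reads per library.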
